A study of Danio rerio with 13 samples.

Results

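All 3 tert-/- muscle libraries were compared with all 5 tert+/- muscle libraries, 8 of the 13 RNA-seq libraries of the series, over every gene counted. The tert-/- fish carried the hu3430 nonsense mutation in both copies of tert, the gene for the catalytic subunit of telomerase, and the tert+/- fish carried it in a single copy. The other 5 libraries came from wild type fish and are given as a level for orientation. They entered the fits through the shared estimate of spread, the filter on low counts and the scaling. All fish were AB males of 3 months, and the mutation was present in every cell of the body. The labels name the tissue as muscle without saying which muscle was taken, and they do not say whether the genotypes were litter mates.

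Telomerase extends the repeats at chromosome ends that DNA replication leaves unfinished. Its protein subunit, encoded by tert, copies the repeat from an RNA template, and other proteins cap the chromosome end and control access to it. When telomeres become short, cells are known to activate the DNA damage response and p53, which stop division or start apoptosis. Adult skeletal muscle consists mostly of fibres that no longer divide, together with smaller numbers of stem cells, fibroblasts, endothelial cells, nerve and blood cells, and bulk RNA mixes them all. Zebrafish tert mutants are known for early loss of fertility, thinning muscle and shortened life, so the comparison asks whether the muscle transcriptome of young adults already differs between homozygotes and heterozygotes.

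The testis-transcript libraries were set aside in a second fit. These were the libraries with over 50 CPM (counts scaled by the library total) of ddx4 (ENSDARG00000014373), which encodes the germ cell RNA helicase Vasa. In plain CPM, ddx4 stood at 426, 0.0686 and 0.0453 in tert-/- 1, 2 and 3, against 180, 0.11, 0.145, 1.62 and 3.71 in tert+/- 1 to 5 and between 0 and 116 in the wild type. The fit on all libraries therefore held 3 tert-/- against 5 tert+/- libraries, and the fit without testis libraries held 2 (tert-/- 2 and 3) against 4 (tert+/- 2 to 5). Traces remained in the smaller set: the summed plain CPM of 7 testis markers was 2.86 and 0.907 in tert-/- 2 and 3, against 0.988, 1.45, 9.18 and 26.5 in tert+/- 2 to 5. Depth ranged between 29.14 and 44.12 M counts in tert-/- libraries and between 14.92 and 47.49 M counts in tert+/- libraries. Fast muscle fibre genes took 41.4 to 55.3% of the counts in tert-/- libraries and 32.0 to 54.9% in tert+/- libraries, so the tissue label held in all 8. Pearson correlations of log2 CPM across genes, which are not independent replicates, ran between 0.9208 and 0.9541 for pairs of a tert-/- and a tert+/- library in the smaller set, stood at 0.9453 for the tert-/- pair and ran between 0.9141 and 0.9512 within tert+/-, so the distance between genotypes overlapped that within a genotype. In the following, levels are CPM scaled by the trimmed mean of M values (TMM), which corrects for library composition. Differences are log2 fold changes of tert-/- over tert+/- from edgeR's quasi-likelihood fit. On all libraries the TMM factor was 2.30 in tert-/- 1 and 2.03 in tert+/- 1, against 0.771 to 0.922 in the other tert-/- and tert+/- libraries. The levels of tert-/- 1 and tert+/- 1 were thus lowered relative to plain CPM, and overlap between genotypes was judged on the TMM scale unless stated.

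No gene passed the test at an adjusted p under 0.05 in either fit. On all libraries 19407 genes were tested and the lowest Benjamini-Hochberg adjusted p of edgeR was 1, with 284 genes (1.46%) at an unadjusted p under 0.05, fewer than the 970 expected if no gene differed. Of these, 127 had a higher level in tert-/- (0.654% of genes tested) and 157 a lower level (0.809%). Without testis libraries 17970 genes were tested, again with 0 called and a lowest adjusted p of 1, and 464 genes (2.58%) were at an unadjusted p under 0.05, against 898 expected. Here 138 had a higher level in tert-/- (0.768%) and 326 a lower level (1.81%). The log2 fold change was positive for 50.3% of all genes tested on all libraries and for 48.9% without testis libraries, so neither direction prevailed. The split at an unadjusted p under 0.05 depended on the alternative. Without testis libraries most alternatives kept more lower genes, for example 135 higher and 330 lower with DESeq2 size factors and 133 and 492 in DESeq2. The exceptions were limma-voom with quality weights (259 higher and 162 lower) and edgeR without tert-/- 3, which left 1 tert-/- library. On all libraries the alternatives went both ways. The split there was 172 and 254 in DESeq2, 281 and 210 in limma-voom, 219 and 79 in edgeR scaled by library totals alone, and 717 and 278 in edgeR without tert+/- 1. limma-voom called 0 genes in both sets, whereas DESeq2 called 0 without testis libraries and 1 on all libraries. The DESeq2 gene was nlrc8, a family member of the intracellular NLR receptors, which had a plain CPM of 0 in all 3 tert-/- libraries, against 11.5, 0, 0, 9.58 and 22.8 in tert+/- 1 to 5. Wild type libraries had nlrc8 at 10.8, 0, 12.2, 0.0243 and 0 plain CPM, so some tert+/- and wild type libraries held this transcript and others of the same genotype had none.

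The size of difference that could be seen was limited by the spread. The biological coefficient of variation was 63.9% on all libraries and 37.4% without testis libraries, and the 95% confidence interval of a log2 fold change reached 1.003 and 0.797 to either side for the median gene. A gene with an interval of the median width would therefore have needed a difference near these sizes to stand clear of 0 before adjustment, and genes with a narrower interval a smaller one. The genes below are described by their levels, and none of them is a called difference. Gene symbols are written as the files' annotation gives them, which for many zebrafish genes is the human symbol in capitals.

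The tert transcript itself was counted in every library of both mutant genotypes. Its level (TERT, ENSDARG00000042637) was 2.02, 3.53 and 6.0 TMM-scaled CPM in tert-/- 1, 2 and 3, against 7.82, 5.68, 6.66, 6.7 and 6.35 in tert+/- 1 to 5, resting on 135 to 204 counts in the tert-/- libraries. On this scale tert-/- 3 lay above tert+/- 2, while tert-/- 1 and 2 lay below every tert+/- library. tert-/- averaged 3.85 ± 2.01 (SD, n = 3) and tert+/- 6.64 ± 0.772 (SD, n = 5), a difference of -2.79 CPM (exact permutation test, two-sided p = 0.0357 over 56 arrangements, of which the smallest possible is 0.0179). That p rested on the scaling and on the testis libraries. On plain CPM every tert-/- library (4.63, 3.25 and 4.62) lay below every tert+/- library (15.8, 5.24, 5.61, 5.71 and 5.39). The difference of means there was -3.38 (exact permutation p = 0.268), with an SD of 4.62 in tert+/-, where tert+/- 1 stood far above the rest. Without testis libraries the difference was -1.28 on the TMM scale (p = 0.133, exact permutation over 15 arrangements). It was -1.55 on plain CPM (p = 0.0667, the smallest that exact permutation allows there). tert+/- libraries were not set below the wild type, which averaged 6.55 ± 1.92 (SD, n = 5). Counts over the whole gene do not show whether the protein was made, and a nonsense allele need not remove its RNA.

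**Figure D1:**
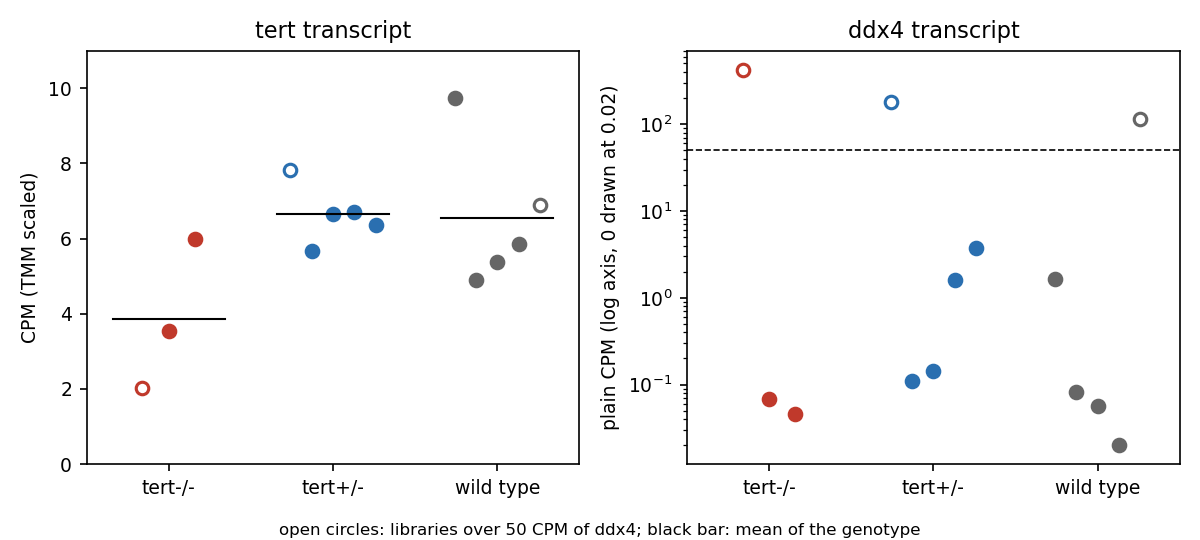
Left, the tert transcript in TMM-scaled CPM in each library of tert-/-, tert+/- and wild type, with the genotype mean as a bar; right, ddx4 in plain CPM on a log axis, with the dashed line at 50 CPM. tert ran between 2.02 and 6.0 CPM in tert-/- and between 5.68 and 7.82 CPM in tert+/-, and 1 library of each genotype lay above the ddx4 line (open circles).

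Among genes with a higher level in tert-/-, those that did not overlap tert+/- on all libraries were mostly small differences in genes expressed at a few CPM. Such non-overlap upward was found for 110 genes, 0.567% of those tested. EXOC5 (ENSDARG00000060323), a subunit of the exocyst that tethers secretory vesicles to the plasma membrane, had 4.53, 3.81 and 3.97 CPM in tert-/- 1 to 3, against 2.88, 2.98, 2.45, 3.09 and 2.4 in tert+/- 1 to 5. On the TMM scale the spread within each genotype was narrow, and every tert-/- library lay above every tert+/- library. The log2 fold change was 0.57 (SE 0.20, unadjusted p = 0.0132, edgeR) and 0.53 (SE 0.18) without testis libraries. Wild type averaged 4.28 ± 0.398 CPM for EXOC5 (SD, n = 5), close to tert-/-, so tert+/- held the lower level of the 3 genotypes.

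ALDH5A1 (ENSDARG00000076544) encodes succinic semialdehyde dehydrogenase, the mitochondrial enzyme of the last step of GABA breakdown. It had 4.22, 3.91 and 3.23 CPM in tert-/-, against 2.78, 1.84, 1.89, 2.35 and 2.92 in tert+/-. The genotypes again did not overlap, and the log2 fold change was 0.68 (SE 0.24, unadjusted p = 0.0136) on all libraries and 0.69 (SE 0.24) without testis libraries. As with EXOC5, the wild type mean of 4.11 ± 0.654 CPM (SD, n = 5) lay on the side of tert-/-. EXOC5 and ALDH5A1 thus kept nearly the same value in both fits. With the TMM factors undone, however, tert+/- 1 lay above tert-/- 2 and 3 for both genes. Their lack of overlap on all libraries therefore rested on the scaling.

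In several other genes of this kind the distance depended on tert-/- 1, the library with the highest ddx4. MCF2L, which encodes a guanine nucleotide exchange factor, had 4.38, 1.29 and 2.03 CPM in tert-/-, against 0.927, 1.19, 0.903, 0.915 and 1.12 in tert+/-. tert-/- 1 stood far above the rest, and the log2 fold change was 1.34 (SE 0.38, unadjusted p = 0.00346 in edgeR) on all libraries and 0.70 (SE 0.33) without testis libraries. slc44a1a, of the choline transporter family, had 4.55, 2.27 and 2.47 CPM in tert-/-, against 1.76 to 1.98 in tert+/-, and zmat1, which encodes a zinc finger protein, had 3.81, 1.74 and 2.09, against 0.774 to 1.59. Both were also highest in tert-/- 1, with log2 fold changes of 0.71 and 1.02 on all libraries and 0.33 and 0.73 without testis libraries. For EEIG2 the 2 values were 0.88 and 0.39. INTS6L (log2 fold changes 0.65 on all libraries and 0.55 without testis libraries), camkvl (0.90 and 0.79), the lipase maturation factor LMF2 (0.91 and 0.64) and rexo1 (0.54 and 0.37) completed the set, each at a few CPM. With the TMM factors undone, tert+/- 1 lay above tert-/- 3 for every gene of this paragraph. Their lack of overlap on all libraries thus rested on the scaling as well.

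Genes with a lower level in tert-/- that did not overlap on all libraries numbered 125, 0.644% of those tested. kctd12b (ENSDARG00000037507), of the family of auxiliary subunits of GABA-B receptors, had the smallest p of the fit. It stood at 0.703, 0.547 and 1.68 CPM in tert-/- 1 to 3, against 2.75, 7.14, 3.52, 3.78 and 2.79 in tert+/- 1 to 5. Every tert-/- library lay below every tert+/- library, tert+/- 2 stood highest, and the log2 fold change was -2.04 (SE 0.48, unadjusted p = 0.00106, adjusted p = 1 in edgeR) and -1.93 (SE 0.55) without testis libraries. Wild type averaged 1.37 ± 0.521 CPM for kctd12b (SD, n = 5), close to tert-/- and below every tert+/- library.

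SELE, the gene for E-selectin, with which activated endothelium catches leukocytes, had 0.882, 2.12 and 2.47 CPM in tert-/-, against 2.62, 7.59, 3.61, 5.74 and 3.91 in tert+/-. tert-/- 3 and tert+/- 1 were close together, and tert+/- 2 and 4 were highest (log2 fold change -1.37, SE 0.41 on all libraries and -1.16, SE 0.33 without testis libraries). SMAD7, the inhibitory SMAD that turns off TGF-beta receptors, had 3.93, 6.02 and 5.06 CPM in tert-/-, against 8.08, 11.4, 7.52, 8.46 and 6.45 in tert+/-, a log2 fold change of -0.75 (SE 0.23) and -0.59 (SE 0.23) without testis libraries. The wild type mean of SMAD7 was 5.78 ± 0.536 CPM (SD, n = 5), near tert-/-. zbtb16b, a zinc finger transcription factor of the PLZF type, had 2.99, 2.39 and 2.94 CPM in tert-/-, against 4.97, 21.0, 5.29, 10.8 and 3.88 in tert+/-. INA, which encodes the neuronal intermediate filament alpha-internexin, had 1.12, 1.12 and 1.82, against 2.29, 8.24, 3.83, 4.60 and 2.08. With the TMM factors undone, tert-/- 1 lay above tert+/- 5 for SMAD7, zbtb16b and INA, while kctd12b and SELE still did not overlap. On the TMM scale the highest library for zbtb16b and INA, as for kctd12b, SELE and SMAD7, was tert+/- 2. That library also held the highest sum of endothelial markers (kdrl, cdh5 and fli1a), at 224 plain CPM. The sum was 99.4, 132 and 88.5 in tert-/- 1 to 3 and 86.4 to 164 in the other tert+/- libraries. Summed nerve and fibroblast markers were highest in tert+/- 2 as well. Nerve markers stood at 967 plain CPM, with tert-/- 2 next at 665, and fibroblast markers at 4540, with tert+/- 1 next at 3290. The part of these markers in the result was not tested.

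The remaining lower genes shared another library. PAPSS2, which makes the sulfate donor PAPS, had 1.44, 1.59 and 1.24 CPM in tert-/-, against 2.48, 3.21, 11.4, 1.88 and 5.20 in tert+/- 1 to 5. zgc:193505 had 0.419, 0.771 and 0.823, against 0.861, 2.59, 3.22, 1.29 and 2.44. tert+/- 3 was highest for both, as it was for si:ch211-195b11.3 (log2 fold change -1.92), si:dkey-223p19.1 (-2.14) and si:ch211-157c3.4 (-2.64). With the TMM factors undone, tert-/- 1 lay above tert+/- 4 for PAPSS2 and si:ch211-195b11.3, so their lack of overlap rested on the scaling. The sum of 4 skin markers was 803 plain CPM in tert+/- 3, against 195, 250 and 93.3 in tert-/- 1 to 3. In the other tert+/- libraries it was between 99.4 and 303. krt5 alone held 671 in tert+/- 3, and epcam and cldni were also highest there. krt4 was not, at 98.6 in tert+/- 3 against 197 in tert+/- 1 and 140 in tert-/- 2. The part of skin transcripts in these values was not tested, and in bulk RNA fewer cells of a type and less RNA per cell cannot be told apart.

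**Figure D2:**
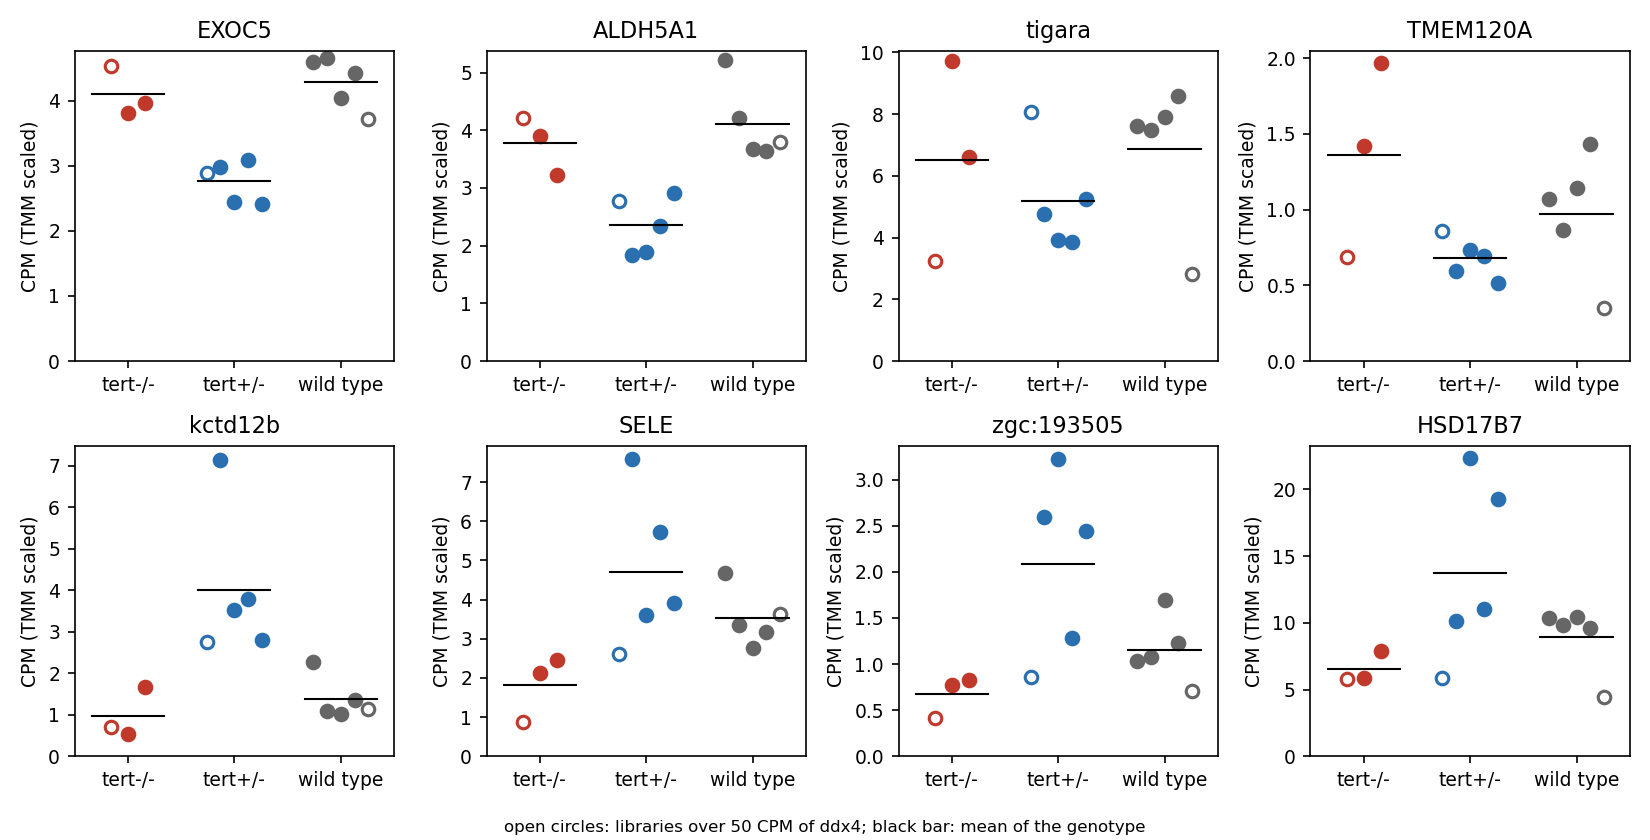
TMM-scaled CPM of EXOC5, ALDH5A1, tigara, TMEM120A, kctd12b, SELE, zgc:193505 and HSD17B7 in each library, grouped as tert-/-, tert+/- and wild type, with bars at the genotype means and open circles for libraries over 50 CPM of ddx4. EXOC5 and ALDH5A1 lay lower in tert+/- than in both other genotypes, kctd12b lay higher in tert+/-, and tigara and TMEM120A separated tert-/- from tert+/- only when the open circles were set aside.

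Without testis libraries the smallest p belonged to TMEM120A, a gene for a nuclear envelope and membrane protein studied in fat cells. It had 1.22 and 1.71 CPM in tert-/- 2 and 3, against 0.507, 0.635, 0.575 and 0.441 in tert+/- 2 to 5. Both tert-/- libraries lay above all 4 tert+/- libraries, with a log2 fold change of 1.44 (SE 0.31, unadjusted p = 0.000814, adjusted p = 1 in edgeR), and on all libraries, where tert-/- 1 stood at 0.688 CPM, it was 0.99 (SE 0.43). With 2 libraries against 4, non-overlap upward was common, with 852 genes or 4.74% of those tested, and so was non-overlap downward, with 744 genes or 4.14%.

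tigara (ENSDARG00000051749) is a zebrafish copy of TIGAR, a p53 target whose product lowers fructose-2,6-bisphosphate and thereby slows glycolysis. Its level was 8.37 and 5.75 CPM in tert-/- 2 and 3, against 4.05, 3.4, 3.2 and 4.52 in tert+/- 2 to 5. The genotypes did not overlap (log2 fold change 0.90, SE 0.21, unadjusted p = 0.0013), the wild type mean of 6.67 ± 0.54 CPM (SD, n = 4) lay with tert-/-, and on all libraries the log2 fold change was 0.33 (SE 0.41), with tert-/- 1 at 3.25 and tert+/- 1 at 8.08 CPM. The other copy, tigarb, had 5.13 and 5.93 CPM in tert-/-, against 3.70 to 4.37 in tert+/-, a log2 fold change of 0.47 (SE 0.23). The sources used here do not say how reads shared by the 2 copies were assigned.

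Of the other higher genes named by that fit or by the lists, 4 are given with their levels. FBXO40, a muscle-restricted ubiquitin ligase adaptor known in mice for the turnover of the insulin receptor substrate IRS1, had 45.4 and 51.4 CPM in tert-/-, against 30.8, 33.1, 26.6 and 36.8 in tert+/-. The log2 fold change was 0.60 (SE 0.19, unadjusted p = 0.00797), and 0.38 (SE 0.46) on all libraries, where the testis libraries of both genotypes were lowest at 13.9 and 11.9 CPM. CAMK2A, a calcium/calmodulin-dependent kinase, had 2.38 and 2.07 CPM, against 0.963, 1.34, 0.883 and 0.524 (log2 fold change 1.27, SE 0.36), and was at 0.97 (SE 0.45) on all libraries. PFKM, the muscle phosphofructokinase and the committed step of glycolysis, had 342 and 213 CPM, against 182, 183, 144 and 135, with tert-/- 2 far above the rest (log2 fold change 0.79, SE 0.27). TXNIP, which restrains glucose uptake and binds thioredoxin, had 85.8 and 80.0 CPM, against 51.8, 38.6, 54.5 and 52.3 (log2 fold change 0.75, SE 0.27). On all libraries the log2 fold changes were 0.38 (SE 0.52) for PFKM and 0.66 (SE 0.59) for TXNIP.

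The other higher genes without testis libraries ranged between log2 fold changes of 0.62 and 6.13. They were the helicase IGHMBP2 (0.62), sh3pxd2ab (0.63), the splicing-associated THRAP3 (0.69), the mitochondrial peptide deformylase PDF (0.71), epd (ependymin, 1.72) and si:dkeyp-1h4.8 (6.13). On all libraries they were at 0.60, 0.31, 0.36, 0.51, 1.28 and 3.55 in the same order, and the genotypes of each overlapped. si:dkeyp-1h4.8 rested on tert-/- 2, with 11.7 CPM there and 0.384 in tert-/- 3, against 0 to 0.224 in tert+/-, and a wild type mean of 3.34 ± 2.6 (SD, n = 4). IGHMBP2, in contrast, was narrow within genotypes, with 3.56 and 4.53 CPM in tert-/-, against 2.5 to 2.74 in tert+/-.

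Lower genes without testis libraries included 3 that were highest in tert-/- 1 on all libraries. DNAH12, an axonemal dynein heavy chain, had 0.343 and 0.256 CPM in tert-/- 2 and 3, against 0.659, 1.2, 1.54 and 1.79 in tert+/- 2 to 5 (log2 fold change -2.10, SE 0.52), and its direction was opposite on all libraries (1.06, SE 1.52), where tert-/- 1 had 34.6 and tert+/- 1 had 22.2 CPM. fhdc3, at 45.7 CPM in tert-/- 1 and 40.4 CPM in tert+/- 1, and celsr1b, at 41.4 CPM in tert-/- 1 and 0.133 CPM in tert+/- 1, also turned, with -4.39 and -2.79 without testis libraries and 0.76 and 3.09 on all libraries. For all 3 genes the highest tert+/- libraries of the smaller set were tert+/- 4 and 5, the ones with a testis marker sum of 9.18 and 26.5 plain CPM. The testis and germ line list had 2 of 28 tested members higher in tert-/- (48.9% of all genes were) and 26 lower. Of the lower members 8 were at an unadjusted p under 0.05 (1.81% of all genes were). The median log2 fold change was -2.48, against -0.0074 over all genes. These counts are no independent support. The libraries were split by a germ cell gene, and the filter on low counts could pass members through tert+/- 4 and 5. Once the libraries over 1 CPM of ddx4 were also left out, a set chosen after the data were seen, 13 members were tested with a median of -0.47 and 0 at that p. TDRD6, a germ granule component and a member of the list, stood at 0.129 and 0.102 CPM in tert-/-, against 0.203, 0.373, 1.75 and 2.59 in tert+/-.

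The lower genes of that fit described next were not high in the testis libraries. epha2a, an ephrin receptor, had 2.47 and 2.97 CPM in tert-/-, against 5.80, 4.33, 4.66 and 4.0 in tert+/-, a log2 fold change of -0.79 (SE 0.22, unadjusted p = 0.00471) and -0.83 (SE 0.31) on all libraries. Its wild type mean was 2.37 ± 0.284 CPM (SD, n = 4), close to tert-/-. FOSL2, a Fos family subunit of the transcription factor AP-1, had 2.23 and 2.53 CPM, against 3.88, 4.33, 3.04 and 4.22, and its log2 fold change was -0.70 (SE 0.24), and -0.69 (SE 0.24) on all libraries. DPH6, an enzyme of diphthamide synthesis, had 1.2 and 1.25 CPM, against 2.74, 5.26, 2.05 and 2.4 (-1.33, SE 0.37), and tmem176l.3a had 0.665 and 0.537, against 0.938, 3.06, 1.91 and 1.54 (-1.62, SE 0.44). On all libraries both overlapped, at -0.86 (SE 0.40) for DPH6 and -1.29 (SE 0.44) for tmem176l.3a. DPH6 and tmem176l.3a were highest in tert+/- 3, the library with the highest skin marker sum.

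Cholesterol synthesis and uptake was the metabolic list with the lowest median without testis libraries. Cells make cholesterol from acetyl-CoA through mevalonate and squalene or take it up through the LDL receptor, and SREBP2, the product of srebf2, switches on both routes when sterols are scarce. Of 40 members tested, 35 had a lower level in tert-/- and 5 a higher one, with a median log2 fold change of -0.43, and 6 were at an unadjusted p under 0.05, all lower, of which 5 are described. That is 15% of the list, where 1.81% of all genes were lower at that p. Members lower in both tert-/- libraries than in every tert+/- library numbered 6, which is 15% of the list, against 4.14% over all genes. None passed adjustment.

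HSD17B7 (ENSDARG00000088140), a ketosteroid reductase of the late pathway, had 5.08 and 6.86 CPM in tert-/- 2 and 3, against 8.64, 19.4, 9.16 and 16.6 in tert+/- 2 to 5. The genotypes did not overlap, tert+/- 3 and 5 were highest, and the log2 fold change was -1.17 (SE 0.33, unadjusted p = 0.00531). SQLE, the squalene epoxidase, had 0.515 and 0.972 CPM, against 1.72, 4.22, 1.05 and 1.96, so tert-/- 3 and tert+/- 4 were close together (-1.58, SE 0.55). The LDL receptor gene ldlrb had 1.07 and 1.41 CPM, against 3.70, 2.43, 1.81 and 2.4 (-1.06, SE 0.38). EBP, the sterol isomerase, had 1.33 and 1.82, against 2.86, 4.82, 1.70 and 3.70 (-1.05, SE 0.42), and its genotypes overlapped. srebf2 itself had 6.54 and 7.16 CPM, against 10.8, 9.44, 8.28 and 8.74, a smaller log2 fold change of -0.44 (SE 0.17) with no overlap.

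The member with the highest level, HMGCS1, which condenses acetyl-CoA units early in the pathway, had 16.8 and 22.2 CPM in tert-/-, against 20.8, 33.5, 15.5 and 26 in tert+/-. Its genotypes overlapped (log2 fold change -0.29, SE 0.39). Wild type means lay near tert-/- for EBP (1.53 ± 0.429 CPM, SD, n = 4), SQLE (0.654 ± 0.179) and srebf2 (7.08 ± 0.654). The wild type mean lay below tert-/- for ldlrb (0.797 ± 0.253) and between the mutants for HSD17B7 (8.49 ± 0.328). HSD17B7, SQLE and EBP were highest in tert+/- 3, the library with 803 plain CPM of skin markers, and without it 4 members were lower at an unadjusted p under 0.05, with a list median of -0.33, where 385 of 17833 genes tested were lower at that p. Leaving out tert-/- 2 gave 1 such member and a median of -0.23 (547 of 18849 genes), while leaving out all libraries over 1 CPM of ddx4 gave 12 and -0.47 (446 of 17344 genes).

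On all libraries the list was nearer to 0. Of 41 members, 26 were lower in tert-/-, where 50.3% of all genes were higher, and the median was -0.13. At an unadjusted p under 0.05 were 4 members, all lower, where 0.809% of all genes were lower at that p. They were HSD17B7 (-1.07), SQLE (-1.29), EBP (-0.80) and the MYLIP copy ENSDARG00000055118 (-0.99). MYLIP encodes a ubiquitin ligase for the LDL receptor and was singled out, like ldlrb, srebf2 and EBP, after the values were seen. tert-/- 1 did not share the lower level of ldlrb, with 3.98 CPM, above tert+/- 1 with 2.25 CPM. With library totals alone in place of TMM the median was 0.31 and 0 members were at that p, while the median over all genes was 0.25.

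**Figure D3:**
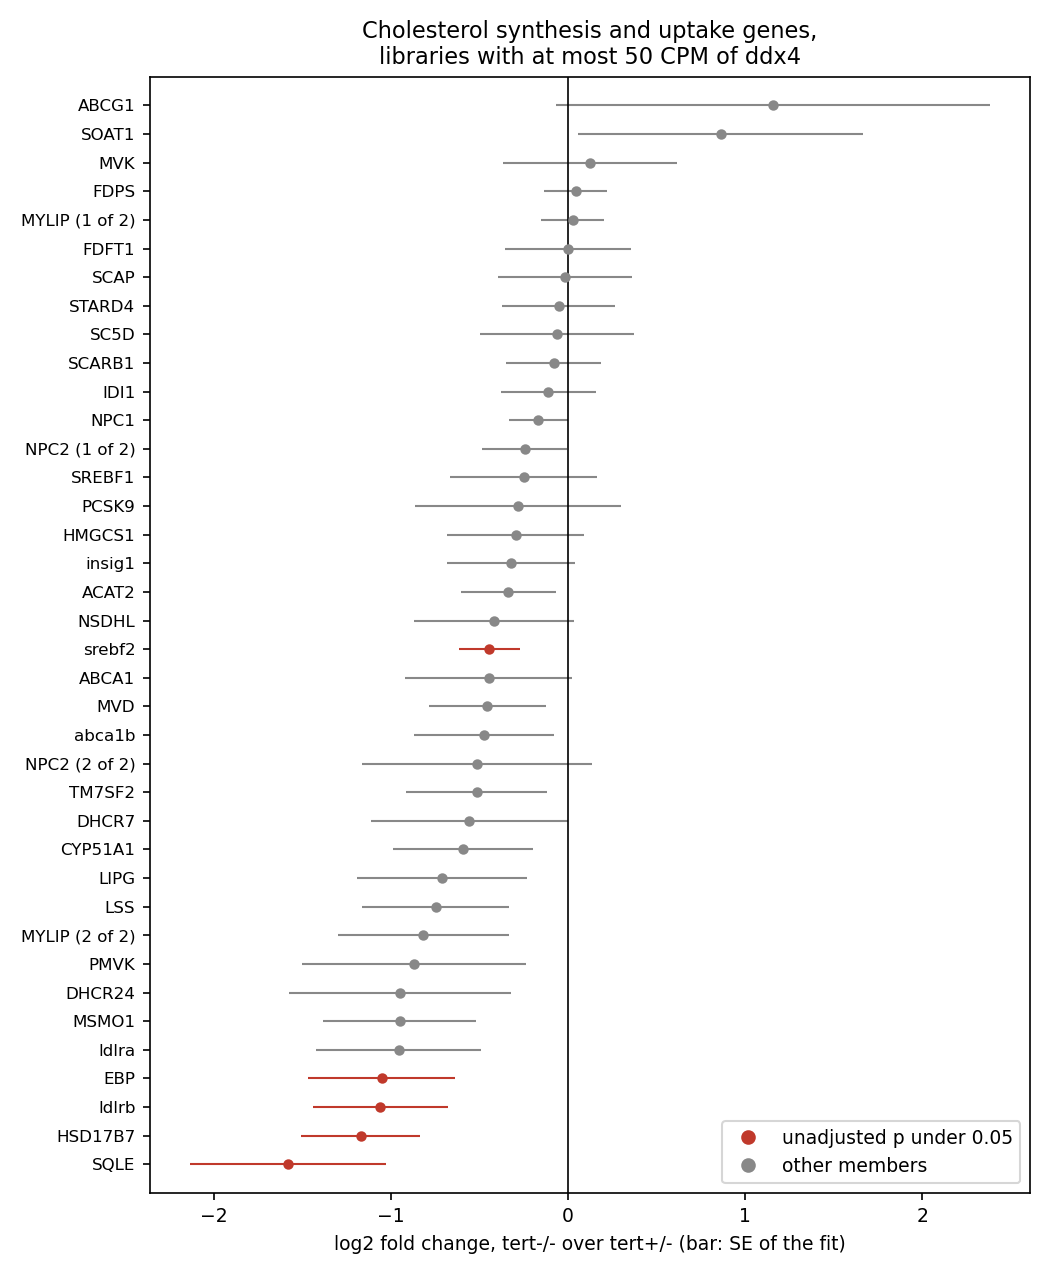
Log2 fold change of tert-/- over tert+/- for 38 of the 40 members of the cholesterol synthesis and uptake list tested without testis libraries, with bars of 1 SE of the fit. Red marks the 5 members drawn that were at an unadjusted p under 0.05, all to the left of 0, and 5 members lay to the right of 0.

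Skin and keratinocyte genes had the lowest median among lists other than testis without testis libraries. Of 56 members tested 48 were lower in tert-/-, with a median of -1.16, and 4 were lower at an unadjusted p under 0.05 (1.81% of all genes were), the keratinocyte transcription factor grhl3 (-2.57), krt1-19d (-2.43), s100w (-1.57) and the hemidesmosome collagen col17a1a (-4.16). s100w and col17a1a were singled out after the values were seen, and the genotypes of both overlapped. col17a1a had 0.129 and 0.102 CPM in tert-/- 2 and 3, against 0.0253, 7.02, 0.144 and 1.49 in tert+/- 2 to 5. s100w had 1.437 and 0.639 CPM, against 1.444, 6.38, 1.36 and 3.37. Their log2 fold changes on all libraries were -2.27 (SE 1.32) for col17a1a and -1.83 (SE 0.59) for s100w. On all libraries 50 of 57 members were lower, with a median of -0.91. grhl3 had 0.794 and 0.256 CPM in tert-/- 2 and 3, against 2.74, 7.39, 1.77 and 0.883 in tert+/- 2 to 5, with tert+/- 3 far above the rest. Without tert+/- 3 the list's median was -0.29 without testis libraries and -0.34 on all libraries, and 2 and 1 members were at that p. In those refits 385 of 17833 and 135 of 19322 genes tested were lower at that p. The most abundant member, krt8, which other epithelia also express, had 288 and 247 CPM, against 345, 292, 311 and 241, and its genotypes overlapped.

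**Figure D4:**
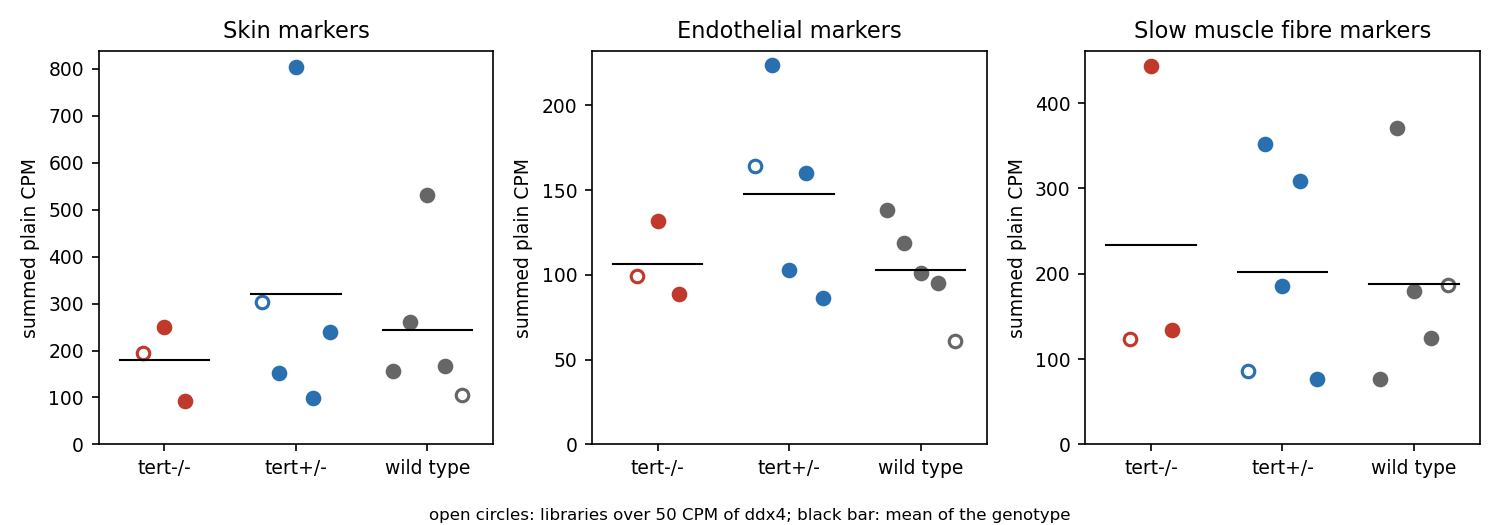
Summed plain CPM of skin markers (left), endothelial markers (middle) and slow muscle fibre markers (right) in each library of tert-/-, tert+/- and wild type, with bars at the genotype means and open circles for libraries over 50 CPM of ddx4. tert+/- 3 stood at 803 for skin, tert+/- 2 at 224 for the endothelium and tert-/- 2 at 443 for slow fibres.

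Muscle fibre genes differed little on balance. Fast fibre members had a median of -0.09 on all libraries and 0.09 without testis libraries over the same 52 genes. The most abundant of them, the muscle actin actc1b, was at -0.10 (SE 0.73) and 0.09 (SE 0.19), and pvalb3, a parvalbumin that speeds relaxation by binding calcium, at -0.50 (SE 0.55) and -0.36 (SE 0.18). Slow and cardiac-type fibre genes had a median of 0.35 without testis libraries, with 29 of 35 members higher in tert-/- (48.9% of all genes were), and 3 higher at an unadjusted p under 0.05 (0.768% of all genes were). On all libraries the median was 0.13, with 23 of 36 members higher and 0 at that p. The 3 members were myh7bb, a slow myosin with 33.6 and 35.2 CPM in tert-/-, against 21.0, 23.7, 15.3 and 19.14 in tert+/- (0.80, SE 0.26), MYH7 with 1.91 and 0.333, against 0.276 to 0.405 (1.65, SE 0.64), and MYL7, an atrial light chain named after its values were seen, with 2.06 and 0, against 0, 0, 0.329 and 0. MYH7 and MYL7 rested on tert-/- 2, and without that library the list's median was -0.44. The summed slow fibre markers were 443 plain CPM in tert-/- 2 and 134 in tert-/- 3, against 352, 186, 309 and 76.1 in tert+/- 2 to 5, so libraries of both genotypes were high and low. myh7bb alone did not overlap in the smaller set, while on all libraries tert+/- 1 was highest at 60.8 CPM and tert-/- 1 lowest at 7.73, giving -0.08 (SE 0.65).

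Of the energy metabolism lists, both sets of respiratory chain genes changed sign with the testis libraries and the others did not. The 13 mitochondrially encoded genes were all lower in tert-/- on all libraries (median -0.19) and all higher without testis libraries (median 0.18). Their most abundant member, MT-CO1, a core subunit of cytochrome c oxidase, was at -0.16 (SE 0.63) and 0.19 (SE 0.25) in log2 fold change. Nuclear genes of oxidative phosphorylation did the same, with 20 of 87 higher and a median of -0.11 on all libraries, and 67 of 87 higher and a median of 0.09 without testis libraries. Glycolysis and glycogen genes had medians of 0.00 and 0.08. Fatty acid uptake and oxidation had medians of 0.04 and 0.16. Without testis libraries 2 of 61 members were lower at an unadjusted p under 0.05 (1.81% of all genes were). These were the long-chain fatty acid transporter SLC27A1, with 3.67 and 1.3 CPM in tert-/-, against 5.45, 7.80, 5.77 and 5.43 in tert+/- (-1.29, SE 0.57), and the acyl-CoA synthetase ACSL4, with 2.60 and 1.92, against 6.01, 3.43, 3.51 and 3.09 (-0.83, SE 0.35). SLC27A1 also did not overlap on all libraries, where its log2 fold change was -1.14 (SE 0.51).

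Insulin and IGF signalling held 5 lower members at an unadjusted p under 0.05 on all libraries, among 65 with a median of -0.11, where 0.809% of all genes were lower at that p. The binding protein IGFBP1 had 1.82, 4.83 and 7.79 CPM in tert-/-, against 7.85, 15.3, 7.05, 8.88 and 16.3 in tert+/- (-1.21, SE 0.54). The insulin receptor substrate IRS2 had 2.95, 5.97 and 8.94, against 7.78, 26.7, 8.77, 14.6 and 6.54 (-1.12, SE 0.51). The transcription factor FOXO1, which insulin signalling keeps out of the nucleus, had 5.82, 8.14 and 9.85, against 8.71, 39.5, 10.6, 16.8 and 7.54 (-1.07, SE 0.48). Its values in tert+/- spread widely, and the 3 genes overlapped between genotypes. The receptor adaptor GRB10 (-1.34) and the mTOR inhibitor DEPTOR (-1.10) were the other 2, and GRB10 alone remained at that p without testis libraries (-1.26, SE 0.55), with 0.343 and 0.384 CPM in tert-/-, against 1.57, 1.01, 0.452 and 0.469 in tert+/-. IRS2, FOXO1, GRB10 and DEPTOR were highest in tert+/- 2, and without that library 0 members of the list on all libraries were at that p. IGFBP1, IRS2 and FOXO1 were singled out after the values were seen.

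Amino acid transporters had a median of -0.11 on all libraries and -0.35 without testis libraries. In the smaller set 31 of 43 members were lower and 12 higher, where 48.9% of all genes were higher. The glutamine transporter SLC38A3 had 28.4 and 37.6 CPM in tert-/- 2 and 3, against 57.7, 43.9, 49.6 and 47.4 in tert+/- 2 to 5 (-0.59, SE 0.22), and the large neutral amino acid transporter SLC43A1 had 4.61 and 3.86, against 12.9, 6.08, 8.99 and 4.91 (-0.96, SE 0.34). Both did not overlap and were the members at an unadjusted p under 0.05, where 1.81% of all genes were lower at that p. In all, 4 members lay wholly below tert+/- (9.3% of the list, against 4.14% over all genes). The wild type means, 67.8 ± 12.1 CPM for SLC38A3 and 3.41 ± 0.3 CPM for SLC43A1 (SD, n = 4), lay on opposite sides of the mutants.

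Genes of the telomere, DNA damage and p53 responses gave no shared direction in both fits. Telomerase and telomere genes were higher in 21 of 30 on all libraries (median 0.15) and in 15 of 30 without testis libraries (median 0.00). On all libraries TERT was lower and the RecQ helicase WRN, named after its values were seen, higher at an unadjusted p under 0.05, with 7.45, 2.66 and 2.53 CPM in tert-/-, against 2.85, 1.67, 1.89, 2.55 and 2.18 in tert+/- (0.92, SE 0.38, and 0.35, SE 0.26 without testis libraries). terf2ip, which encodes the telomere protein Rap1, had 1.82 and 2.61 CPM without testis libraries, against 1.32, 1.90, 1.21 and 1.99 (0.47, SE 0.29). DNA damage response and repair had medians of 0.44 and 0.02. In both fits LIG4, the ligase of non-homologous end joining, was its member at an unadjusted p under 0.05, with 2.32, 2.24 and 3.06 CPM in tert-/-, against 1.66, 1.52, 1.93, 1.83 and 1.96 in tert+/- on all libraries. Its genotypes did not overlap on the TMM scale, and the log2 fold change was 0.51 (SE 0.23) and 0.57 (SE 0.24). With the TMM factors undone, tert+/- 1 lay above tert-/- 2 and 3, so the lack of overlap on all libraries rested on the scaling. The wild type mean was 2.35 ± 0.331 CPM (SD, n = 5). Of all genes, 0.654% were higher and 0.809% lower at that p on all libraries, and 0.768% were higher without testis libraries. Non-overlap upward held for 0.567% of all genes on all libraries.

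The p53 targets had 15 of 35 members higher on all libraries and 18 of 34 without testis libraries (medians -0.07 and 0.01), with 0 at an unadjusted p under 0.05 on all libraries and tigara, above, without testis libraries. CCNG1, a p53-induced cyclin and the most abundant target, was at -0.24 (SE 0.51) and -0.08 (SE 0.25). Cell cycle and mitosis genes were higher in 57 of 59 on all libraries (median 0.85) and in 5 of 58 without testis libraries (median -0.27), with 0 at that p in either fit. TOP2A, the topoisomerase of dividing cells and the most abundant of them, had 118, 2.66 and 6.67 CPM in tert-/-, against 58.5, 6.07, 2.49, 4.0 and 9.81 in tert+/-, so the testis libraries of both genotypes stood above all others. The kinase gene aurka, at 0.193 and 0.0767 CPM in tert-/- 2 and 3, was at 0.228, 0.261, 0.657 and 0.579 in tert+/- 2 to 5, highest in tert+/- 4 and 5 with their testis marker traces. Without the libraries over 1 CPM of ddx4 the list's median was -0.06. Senescence and secreted factors had medians of -0.06 and 0.05.

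Retinoid and sex steroid genes, the subject of the study, were described by the same fits. Vitamin A is bound by carrier proteins, oxidised to retinoic acid and read by nuclear receptors. Retinol and carotenoid handling genes had a median of -0.07 over 50 members on all libraries, with 0 at an unadjusted p under 0.05. Without testis libraries the median was 0.02 over 45 members, with 2 lower at that p (1.81% of all genes were). RBP2, a cellular retinol carrier, had 0.322 and 0.0767 CPM in tert-/-, against 1.8, 0.485, 1.97 and 0.166 in tert+/- (-2.44, SE 0.95), and the retinal reductase RDH11 had 0.214 and 0.384, against 0.684, 0.672, 0.411 and 0.745 (-1.06, SE 0.48), but 0.23 (SE 0.54) on all libraries. Receptors and cofactors of retinoic acid had medians of -0.06 and -0.05 and 0 members at that p in both fits. RARG, a receptor gene of that list, had 6.91 and 7.03 CPM in tert-/-, against 14.4, 7.95, 8.01 and 8.58 in tert+/- (-0.48, SE 0.32).

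Sex steroid synthesis and response had a median of 0.03 over 40 members on all libraries and -0.06 over 33 without testis libraries. Members at an unadjusted p under 0.05 on all libraries were hsd3b1 (3.46), which makes active ketosteroids, HSD17B12 (-1.12) and the steroid 5-alpha reductase SRD5A2 (-0.85). At that p, 0.654% of all genes were higher and 0.809% lower. hsd3b1 had 8.20, 0.324 and 0.118 CPM in tert-/-, against 0.0595 to 0.481 in tert+/-, so its difference was that of tert-/- 1 and its value without testis libraries was 0.05 (SE 0.75). HSD17B12 and SRD5A2 were highest in tert+/- 3, at 6.96 and 9.03 CPM, and had -1.05 (SE 0.58) and -0.61 (SE 0.36) without testis libraries. CYP17A1 (-3.46) and sult1st2 (4.0) were the members at that p there, with fitted values that rest on a few counts and genotypes that overlapped. In that smaller set 0.768% of all genes were higher at that p and 1.81% lower. On all libraries CYP17A1 turned to 2.61 (SE 2.18), with 23.2 CPM in tert-/- 1, and sult1st2 was at 2.43 (SE 1.43). All 5 genes were named after their values were seen.

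Immune, blood and organ lists gave medians that moved with single libraries. Interferon response and antigen display was lower in 39 of 57 members on all libraries (median -0.24) and in 43 of 57 without testis libraries (-0.35), with irf2b the member at an unadjusted p under 0.05 in the smaller set, at 5.98 and 6.52 CPM in tert-/-, against 3.85, 5.15, 3.98 and 3.94 in tert+/- (0.56, SE 0.22). The median was 0.14 without tert-/- 3 and 0.04 without tert+/- 3 in that set. b2m, the light chain of MHC class I, had 86.6 and 50.03 CPM, against 92.1, 206, 96.9 and 64.7 (-0.75, SE 0.43). Complement and acute phase genes had medians of -0.53 and -1.06, liver genes of -0.46 and -0.39, and summed liver markers were between 10.9 and 80.6 plain CPM in tert-/- libraries, against 12.7 to 160 in tert+/- libraries. Exocrine pancreas and gut genes had a median of 1.45 on all libraries, with 7 of 31 members higher at an unadjusted p under 0.05 (0.654% of all genes were), and -0.62 without testis libraries. On all libraries their mean log2 CPM was 1.46 in tert-/- 1, against -0.734 and -0.468 in tert-/- 2 and 3 and -1.23 to 0.34 in tert+/- libraries, so tert-/- 1 alone was high. Endothelial and mural genes had medians of -0.36 and -0.19. Their abundant members CAV1 and CAVIN2, which form the caveolae of capillary endothelium, had 72.7 and 68.1 CPM and 54.3 and 46.0 CPM in tert-/- 2 and 3, against 130, 87.2, 85.5 and 74.9 CPM and 112, 66.1, 79.4 and 50.1 CPM in tert+/- 2 to 5, again highest in tert+/- 2.

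Connective tissue gave 2 genes with opposite directions. Fibroblast and tenocyte genes had medians of 0.05 and 0.30, with 24 of 33 higher without testis libraries (48.9% of all genes were). The tendon transcription factor MKX (Mohawk) had 2.29 and 1.94 CPM in tert-/-, against 0.938, 0.896, 1.29 and 1.27 in tert+/- (0.94, SE 0.31), with a wild type mean of 2.15 ± 0.647 (SD, n = 4). The chemokine CXCL14 had 5.15 and 6.68 CPM, against 8.99, 10.2, 10.8 and 8.63 (-0.71, SE 0.27). Neither overlapped between the genotypes, and they were the members at an unadjusted p under 0.05. At that p, 0.768% of all genes were higher and 1.81% lower. Of the list, 3 members lay wholly above tert+/- (9.09%, against 4.74% over all genes). Wholly below it lay 1 member (3.03%, against 4.14%). Extracellular matrix genes had medians of -0.11 and 0.03, and cytosolic ribosomal proteins of -0.30 and -0.06.

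Across all 44 lists the sign of the median was rarely stable. A rounded median that reached or left 0 was counted as a change of sign. On all libraries 40 medians changed sign under at least 1 of the alternatives run and 4 did not, namely endothelial and mural, complement and acute phase, liver, and skin. Without testis libraries 37 changed sign and 7 did not, and all of cholesterol synthesis and uptake, complement and acute phase, liver, skin, circadian clock and amino acid transporters were on the lower side, with fibroblast and tenocyte on the higher side. A stable sign is no test, and the lists share libraries and some genes.

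**Figure D5:**
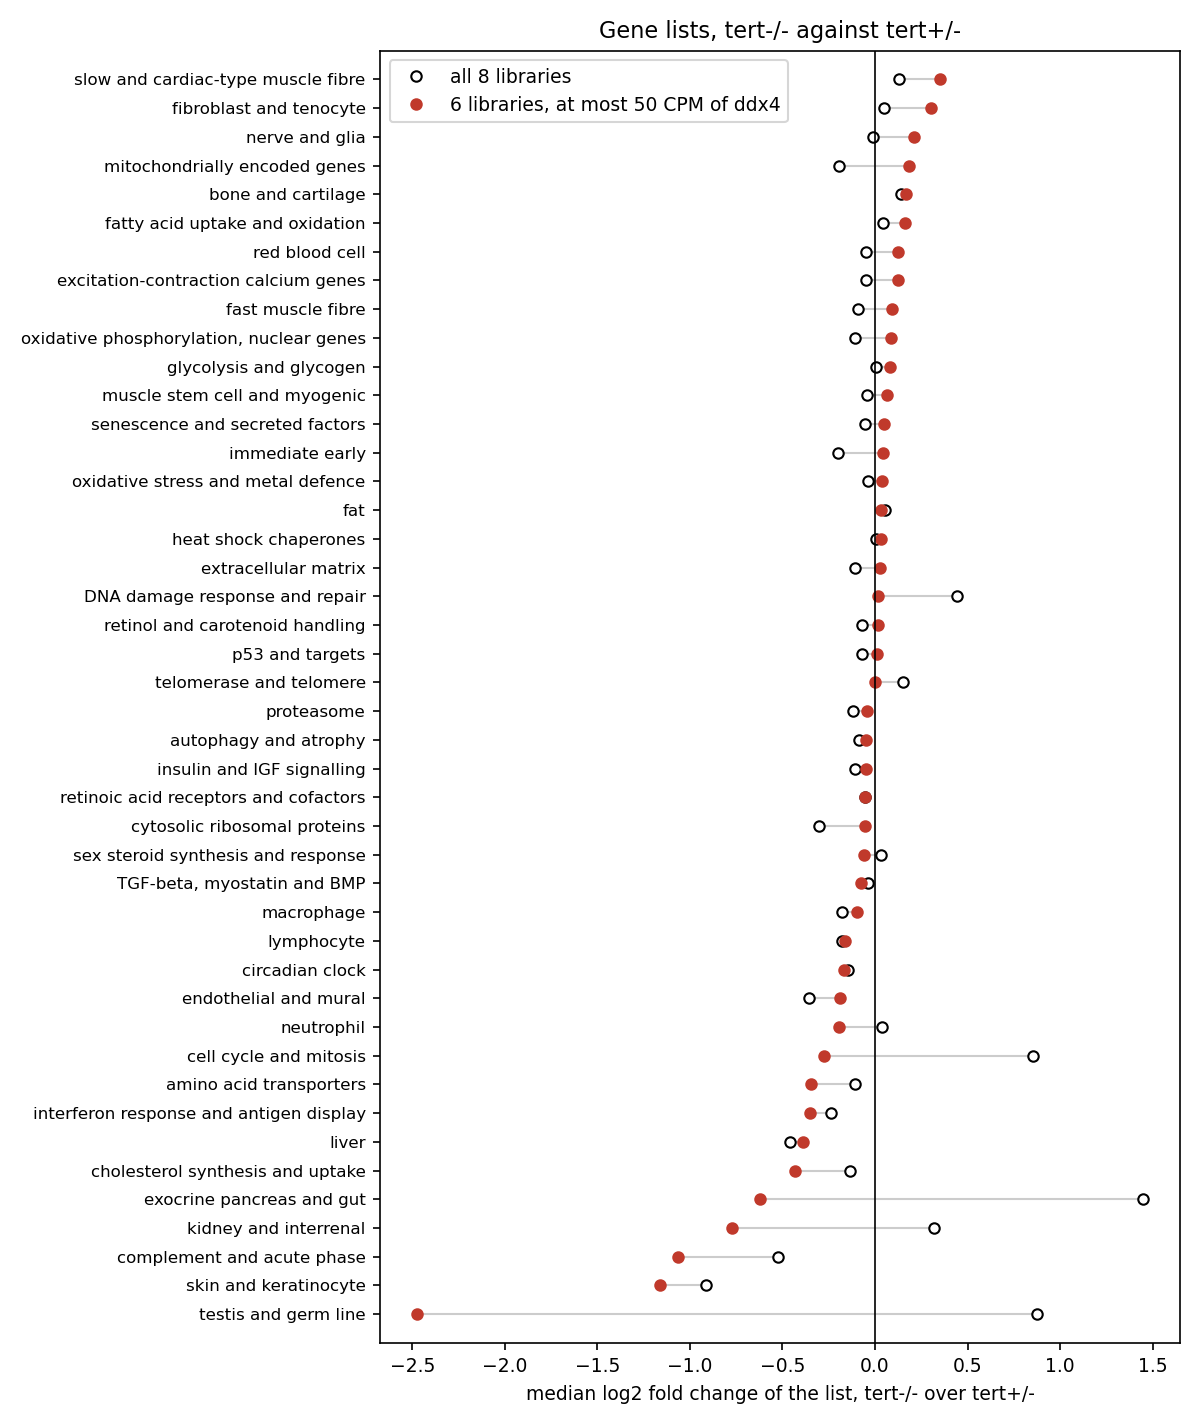
Median log2 fold change of tert-/- over tert+/- for each of 44 gene lists, on all 8 libraries (open circles) and on the 6 libraries with at most 50 CPM of ddx4 (red). Cell cycle (0.85 and -0.27), exocrine pancreas and gut (1.45 and -0.62) and testis (0.88 and -2.48) changed sign between the fits, while skin (-0.91 and -1.16) and cholesterol synthesis and uptake (-0.13 and -0.43) stayed on the lower side.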

How the data were processed

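Libraries were prepared by the authors from total RNA of muscle with the TruSeq RNA Library Preparation Kit v2. Per the labels' processing notes the tools were bcl2fastq 1.8.4, STAR 2.4.1d and featureCounts 1.4.6-p4 on GRCz10. The study's own methods name kallisto for expression values, so the origin of the counts is taken from the notes. The deposited counts are whole reads per Ensembl gene (32105 genes, 26269 matched to a symbol, 5049 at 0 throughout), and the RPKM table was not used. The kit does not keep strand, so overlapping genes on opposite strands cannot be told apart, and the sources used here do not say how reads shared by near-identical copies were handled.

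Counts were fitted with edgeR 4.0.16 in R 4.3.3 (filterByExpr, TMM, a mean per genotype over 13 libraries, quasi-likelihood F test, Benjamini-Hochberg over all genes tested), and refitted without libraries over 50 CPM of ddx4. limma 3.58.1 (voom with quality weights) and DESeq2 1.42.0 were alternatives, with other scalings and filters, robust dispersion, the 8 mutant libraries alone, ddx4 as a covariate, each library left out, and no library over 1 CPM of ddx4, the last added after seeing the data. p-values measure the spread between these libraries, and counting intervals would cover counting error only. The fits were also run on simulated data as a check of the code. The spread there was set below that of the fit on all libraries, and no testis libraries were simulated. Those runs therefore do not show how that fit performs on these libraries. Of 28 library pairs, 0 were identical. Replicate numbers follow accession order. Genes named were tert, in each fit up to 10 per direction of smallest p with a symbol, at least 1 CPM in the higher genotype, an unadjusted p under 0.05 and no overlap, and from each list the 2 members of smallest p without testis libraries and the most abundant, of which a part is described. Members and lists were chosen with earlier results of these data known. A gene of the cholesterol list counts in that list's numbers and is not reported here by itself.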

Additional observations from a re-analysis of the deposited data

Results flagged for a closer look

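The tert+/- libraries of each of the 89 genes named formed 1 group, in the fit for which the gene is named. In 9 of these 89 groups a single library stood apart, 8 of them high and 1 low, by a gap to its neighbour that took up most of the range of the group. The cutoff for that gap is set to pass about 1 group in 20 of normally spread values. The genes were picked from these same values, so that rate does not apply to the 9. On all libraries kctd12b stood at 7.14 CPM in tert+/- 2 (nearest 3.78), si:dkey-223p19.1 at 6.62 CPM in tert+/- 3 (nearest 2.34) and HSD17B12 at 6.96 CPM in tert+/- 3 (nearest 2.79). Without testis libraries RARG stood at 14.4 CPM (nearest 8.58) and ACSL4 at 6.01 CPM (nearest 3.51) in tert+/- 2. In tert+/- 3 of that set SLC27A1 stood at 7.8 CPM (nearest 5.77), irf2b at 5.15 CPM (nearest 3.98) and TXNIP, the low value, at 38.6 CPM (nearest 51.8). MYL7 stood at 0.329 CPM in tert+/- 4 with the other 3 tert+/- libraries at 0, so its gap was bound to fill the whole range. Of these 9 libraries' values, 8 belonged to tert+/- 2 or tert+/- 3. In their genotype tert+/- 2 had the highest endothelial, nerve and fibroblast marker sums and tert+/- 3 the highest skin marker sum. The part of those cells was not tested.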

How the results depend on the processing

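The count of genes at an adjusted p under 0.05 was 0 in every edgeR and limma-voom alternative of both fits, and 1 with DESeq2 on all libraries (nlrc8, adjusted p = 4.04e-08, unadjusted p = 0.0239 in edgeR). Genes at an unadjusted p under 0.05 numbered 189 to 995 over 19 alternatives of the fit on all libraries, with the most without tert+/- replicate 1, and 213 to 746 over 16 alternatives of the fit without testis libraries. With library totals alone, 219 were higher and 79 lower on all libraries, and the median gene moved to 0.25. The tert difference of -2.79 CPM was -3.38 (exact permutation p = 0.268) on library totals, -1.28 (p = 0.133, exact permutation) without testis libraries and between -3.87 and -1.88 when each library was left out in turn (exact permutation p between 0.0286 and 0.0952).

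Of 1489 alternative values of the 89 genes named, 1468 kept their direction and 21 values in 15 genes turned. Most of these genes were picked from the same values, and the alternatives reused the same libraries. A kept direction is therefore no independent test. With the testis libraries added back the log2 fold changes were DNAH12 1.06, fhdc3 0.757, celsr1b 3.09, TDRD6 1.68, aurka 0.726, TOP2A 1.398, CYP17A1 2.61, RDH11 0.232, myh7bb -0.077, MT-CO1 -0.159 and actc1b -0.098. TOP2A was 0.129 without libraries over 1 CPM of ddx4. When each library was left out in turn, values ran between -0.12 and 2.42 for MYH7, -0.102 and 0.42 for MT-CO1, -4.84 and 4.43 for MYL7, -0.333 and 0.118 for CCNG1, and -1.04 and 0.265 for TOP2A, all of which turned without tert-/- 2, with CCNG1 and TOP2A also at 0.069 and 0.18 without tert+/- 5. They ran between -0.157 (without tert-/- 3) and 0.281 for actc1b, and between -0.22 (without tert-/- 1) and 3.99 for hsd3b1. The cause was not tested. Where 1 tert-/- library was left, it was assumed to vary like the other groups. No paired analysis was possible because the labels give no replicate numbers, only accession order. With 2 or 3 tert-/- libraries, the spread limited what could be detected.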
